A study of Rattus norvegicus with 54 samples.

Results

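The border zone of untreated infarcted hearts was compared with the matching piece of sham-operated hearts. The members are the libraries whose labels give the untreated myocardial infarction (MI) group or the sham group and the border zone, which are 6 MI and 6 sham libraries, 12 of the 54 libraries of the series. The animals were female athymic rats of the strain F344/NJcl-rnu/rnu, 8 weeks old at surgery. The MI hearts had a permanent, complete ligation of the proximal left anterior descending artery and received nothing further, the sham hearts had the operation without an infarct, and both groups had the same anesthesia and analgesia. Tissue was taken 1 week after surgery and snap frozen, and the border zone piece was the lateral wall of the left ventricle. Sham hearts have no infarct, so that their border zone is only the same position in the heart. Rats of this strain lack a thymus and are known to carry few mature T cells, which holds for the strain of both groups, although the T cell genes of 1 sham library, given below, go against it. A technical replicate number marks each library in the labels, whereas 6 hearts per group are described in the study's methods, and p-values here measure the spread between these libraries only.

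Closure of a coronary artery kills the heart muscle it supplies. In the following days neutrophils and then macrophages clear the dead tissue, fibroblasts turn into matrix-secreting myofibroblasts, and a collagen scar replaces the lost muscle. The border zone is the surviving but stressed muscle beside the infarct, known for loss of adult contractile, calcium handling and metabolic gene expression, for re-expression of fetal genes and for the slowing of electrical conduction. A piece of tissue holds several cell types at once. In bulk libraries, fewer cells of a type and less RNA per cell cannot be told apart, and this holds for every difference given here.

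RNA with poly(A) tails was sequenced, and the measurement is the number of reads assigned to each gene. Counts on genes lay between 13794048 and 20771868 in the sham libraries and between 16427859 and 20218625 in the MI libraries. Levels are given in CPM, the count of a gene relative to the TMM-scaled total of its library, and differences as log2 fold changes of MI over sham from edgeR's quasi-likelihood test, with Benjamini-Hochberg adjusted p-values over all genes tested and a threshold of 0.05. Reads assigned to no gene took 18.7% to 33.5% of the counts in sham and 14.0% to 22.1% in MI libraries, a mean difference of -9.57 percentage points (exact permutation test, 2-sided, p = 0.0108). The mitochondrial ribosomal RNAs took 0.29% to 1.16% of the counts on genes in sham and 0.25% to 0.60% in MI libraries, a mean difference of -0.35 percentage points (exact permutation test, 2-sided, p = 0.0281).

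The library of sham replicate 5, sham 5 below, stood apart from the other sham libraries. On the first principal component, which held 71.6% of the variance of the 500 most variable genes, the other 5 sham libraries lay between -48.6 and -34.1, the MI libraries between 11.6 and 56.8, and sham 5 at 21.8, among the MI libraries. On the second component, with 14.3% of the variance, sham 5 lay at 50.3 and all other libraries between -14.4 and 8.94. Its deviation was not that of the infarct in every respect. Summed T cell markers reached 788 CPM in sham 5. They were at 50.3 to 80.8 CPM in the other sham and 116 to 297 CPM in the MI libraries. Outside sham 5 most of that sum was Cd4, at 45.6 to 71.6 CPM in the other sham and 101 to 222 CPM in the MI libraries. Cd3e, of the T cell receptor complex, was at 122 CPM in sham 5, against 0.15 to 1.94 CPM in the other sham and 1.00 to 7.24 CPM in MI. By contrast, Col1a1, which encodes the main fibrillar collagen chain, was at 723 CPM in sham 5, within the other sham libraries. The T cell marker level of sham 5 goes against the athymic strain that its label gives. Leaving out replicate 5 of the sham group also moved the T cell markers in the other zones. Their median log2 fold change went from -1.40 to 2.44 in the infarct zone and from -2.11 to 0.87 in the remote zone. In the border zone it went from -1.50 to 2.85. The reason for this was not tested. List counts are therefore given with all 12 libraries and without sham 5, and so are the values of genes whose call changed without it.

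**Figure D1:**
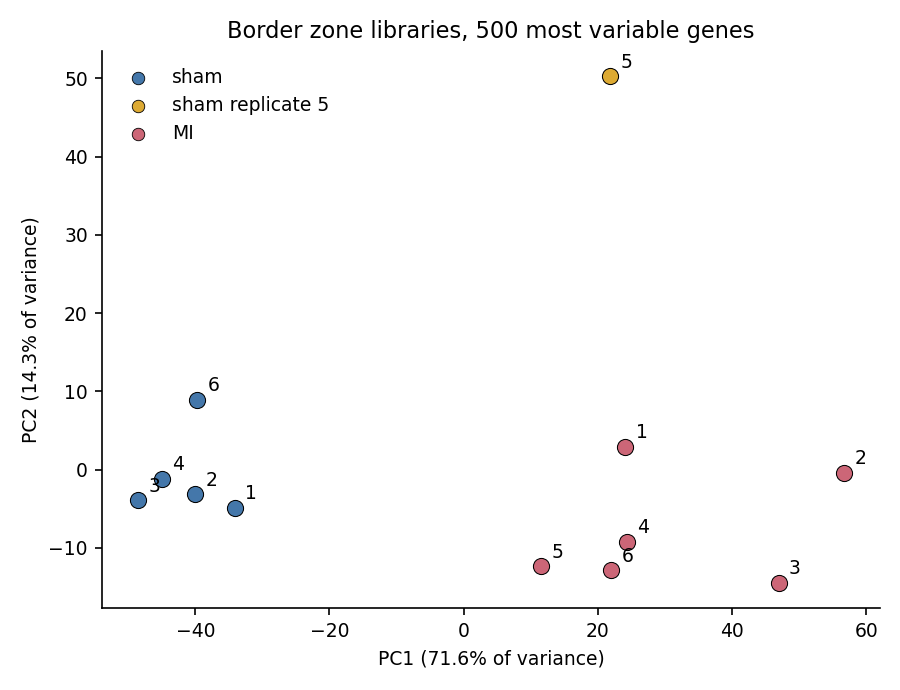
First and second principal components (percent of variance on each axis) of log2 CPM of the 500 most variable genes in the 12 border zone libraries. Each point is a library, with its replicate number beside it. Along the first component sham 5, at 21.8, lies among the MI libraries (11.6 to 56.8) and apart from the other sham libraries (-48.6 to -34.1).

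Cell type markers also separated some MI libraries from the others. The 10 cardiomyocyte markers summed to 58991 to 70766 CPM in the 5 sham libraries other than sham 5, to 20733 CPM in sham 5 and to 4692 to 28403 CPM in the MI libraries, where MI replicates 2 and 3 were lowest. MI replicate 3 also held the most lung marker counts, at a mean log2 level of 3.36, against -2.62 to 0.05 in the other MI and -2.54 to -2.26 in the sham libraries. Neutrophil markers were at 2.57 to 3.56 in MI replicates 1 to 3 and at -0.30 to 0.34 in MI replicates 4 to 6. Adipocyte markers were highest in MI replicate 1, at 3.10. The plot of marker lists shows these libraries beside the rest.

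**Figure D2:**
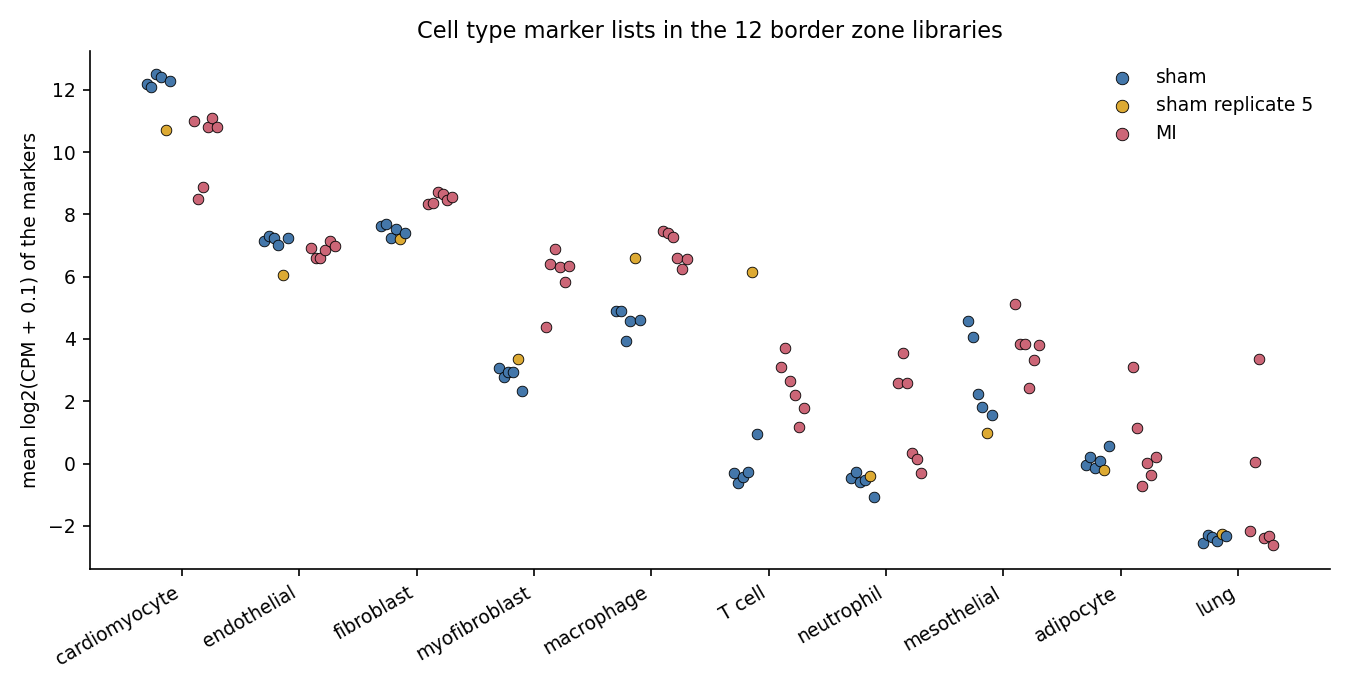
Mean log2(CPM + 0.1) of cell type marker lists (vertical axis) in each of the 12 border zone libraries, 10 lists along the horizontal axis, replicates 1 to 6 from left to right in each group. Cardiomyocyte markers are lower in all MI libraries than in the sham libraries other than sham 5, myofibroblast markers are higher in all MI libraries (4.40 to 6.88) than in all sham libraries (2.33 to 3.37), and sham 5 has the highest T cell score (6.15).

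Of 15641 genes tested, 6517 differed between MI and sham (41.7%), 2883 higher (18.4%) and 3634 lower (23.2%) in MI. With library size as the only scaling, 4203 were higher and 2351 lower, since the median log2 fold change of all genes was then 0.17 in place of -0.02, so that directions of genes near 0 depend on the scaling. Without sham 5, 9641 of 15849 genes passed, 5059 higher (31.9%) and 4582 lower (28.9%). Of the 6517 genes, 6445 passed again without sham 5, all in the same direction. The 6 MI and 6 sham libraries did not overlap in 1822 genes (11.6%), and in 6784 genes (42.8%) once sham 5 was left out. The counts of a list below are of its members that passed the filter on low counts, such as 37 of 44 collagens and 85 of 87 respiratory chain subunits. The shares of all genes given here are the background for each of those counts. The plot of gene lists gives 24 of the groups with their medians.

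**Figure D3:**
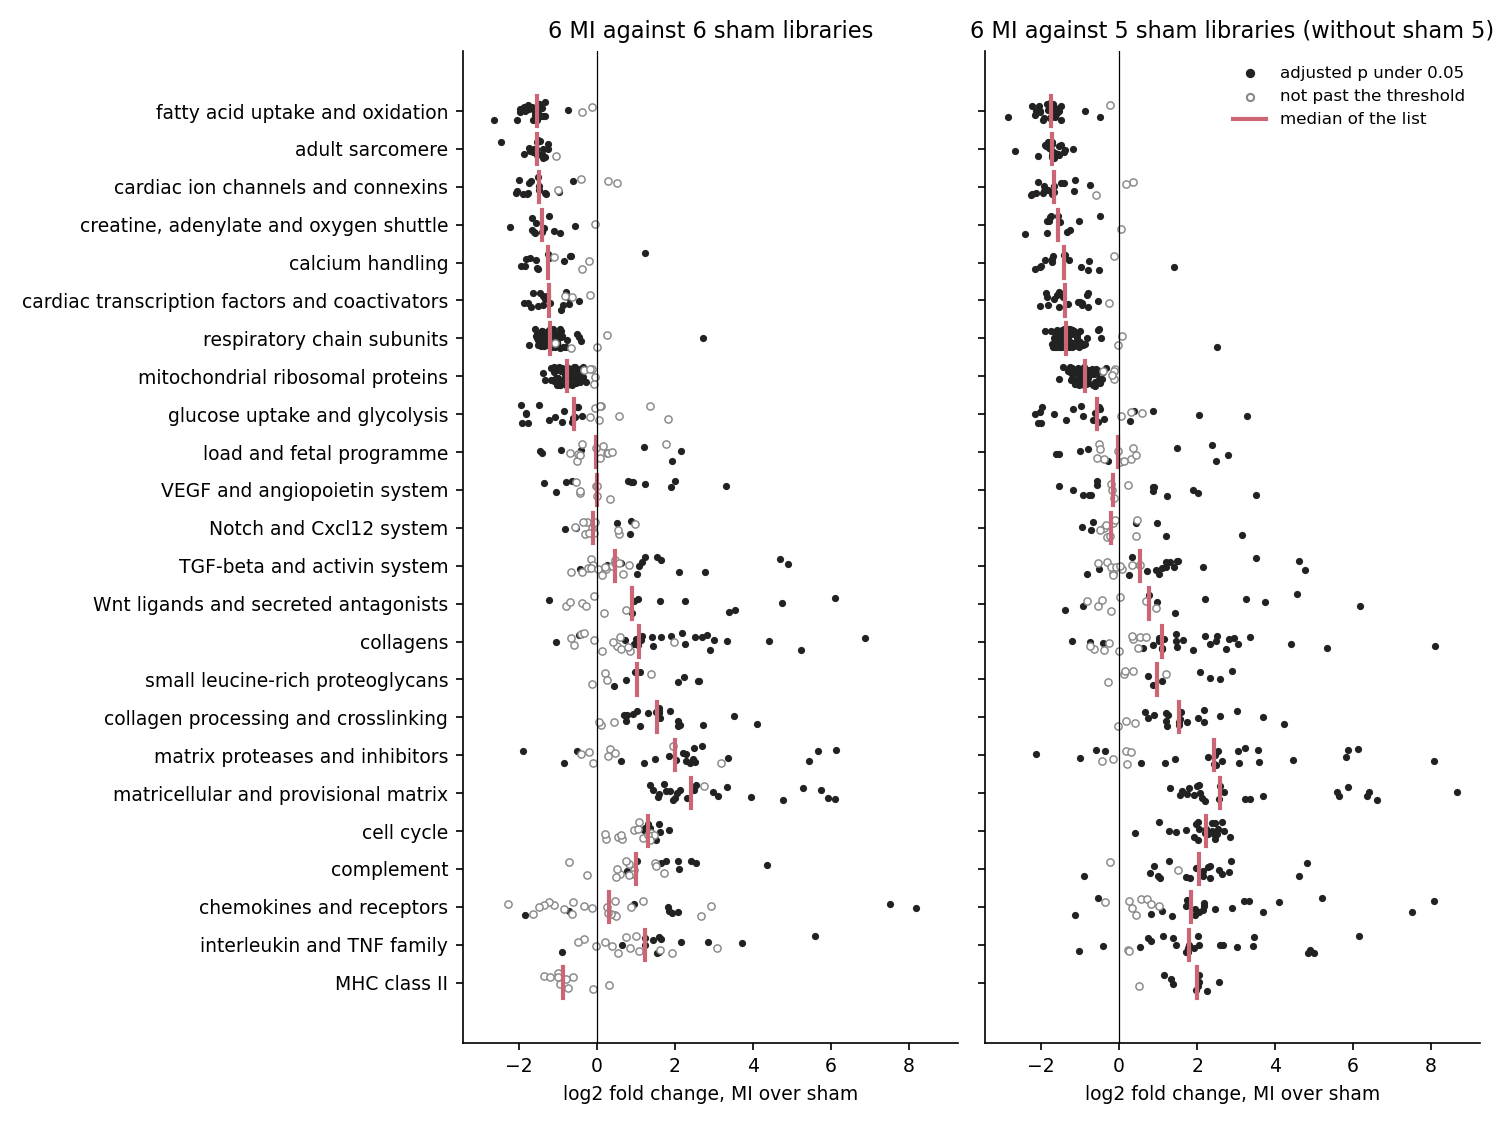
Log2 fold change of MI over sham (horizontal axis) of the tested members of 24 gene lists with all 12 libraries (left) and without sham 5 (right). Filled points passed an adjusted p of 0.05, open points did not, and the vertical bar is the list's median. Lists of cardiomyocyte function lie below 0 and matrix lists above 0 in both panels, while the median of MHC class II moves from -0.88 to 2.00.

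The contractile apparatus was lower in MI as a group. Of 20 adult sarcomere genes, 19 fell and none rose, with a median log2 fold change of -1.54, and 20 of 20 fell without sham 5 (median -1.71). Myh6, the fast adult alpha-myosin heavy chain of the rodent ventricle, was at 1640 to 10694 CPM in sham (median 8169) and at 266 to 2024 CPM in MI libraries (median 1620), a log2 fold change of -2.47 ± 0.60 (SE; adjusted p = 0.0082). Only sham 5, at 1640 CPM, lay within the MI range, and MI replicates 2 and 3 were the lowest. Tnni3, cardiac troponin I, was at 3660 to 12054 CPM in sham (median 10409) and at 842 to 5932 CPM in MI (median 3402), a change of -1.55 ± 0.49 (adjusted p = 0.0238). Again the groups overlapped through sham 5 alone. Tcap, which encodes a cap protein of titin at the Z-disc, was the member that did not pass (log2 fold change -1.05, adjusted p = 0.0575), though it did without sham 5 (adjusted p = 0.0204) and without MI replicate 5 (adjusted p = 0.0303). Leaving out sham replicate 3 lowered the count of fallen sarcomere genes from 19 to 12. Of the 10 cardiomyocyte markers, 8 belong to this list and 2 to the calcium list, so that the marker sums above and these changes are partly the same counts. Part of the sequence before the start of Myh6 and Tnni3 is shown, as the best known adult cardiac genes of this list, from RefSeq (assembly GRCr8), 5′ to 3′ on the strand of the gene and ending at the base before the annotated start. Capitals mark a match of CATTCC, the core of a TEAD site, on chromosome 15 minus strand at 23 to 18 bases before the start of Myh6, and of AGATAA, the core of a GATA site, read here on the opposite strand, at 22 to 17 bases before the start of Tnni3.
Myh6, chr15:32411698-32411947: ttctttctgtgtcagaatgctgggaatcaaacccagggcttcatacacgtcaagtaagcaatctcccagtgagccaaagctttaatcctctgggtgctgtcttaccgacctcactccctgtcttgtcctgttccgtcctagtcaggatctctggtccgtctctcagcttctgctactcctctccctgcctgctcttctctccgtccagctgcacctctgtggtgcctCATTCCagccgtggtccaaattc
Tnni3, chr1:78342321-78342570 plus strand: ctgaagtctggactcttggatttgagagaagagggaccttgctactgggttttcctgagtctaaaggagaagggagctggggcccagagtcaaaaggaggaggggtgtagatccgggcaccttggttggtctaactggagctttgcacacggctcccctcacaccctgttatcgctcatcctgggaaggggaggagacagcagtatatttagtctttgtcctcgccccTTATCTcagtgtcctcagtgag

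These letters are a description of the windows. CATTCC stood in 4 of the 15 sarcomere windows (26.7%), against 9.92% of the 11601 windows of tested genes and 11.8% of all 27457 windows of this length. It stood as well in 31.2% of matricellular, 22.2% of collagen processing and 17.2% of collagen windows, lists that rose. The shares were 13.6% for fatty acid, 6.76% for respiratory chain and 5% for cell cycle genes. AGATAA stood in 2 of the 15 sarcomere windows (13.3%), against 5.98% and 10%.

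Calcium handling and the electrical genes moved the same way. Calcium handling genes carry the release and re-uptake of calcium that drives each beat, and 12 of 16 fell while 1 rose (median -1.25, and 14 fell and 1 rose without sham 5). Atp2a2, the calcium pump SERCA2 of the sarcoplasmic reticulum, was at 2342 to 9198 CPM in sham (median 7407) and at 546 to 2908 CPM in MI (median 2273), a log2 fold change of -1.84 ± 0.48 (adjusted p = 0.0112). Ryr2, the calcium release channel, was at 442 to 1763 CPM in sham (median 1433) and at 102 to 630 CPM in MI (median 492), a change of -1.72 (adjusted p = 0.0147). In both genes sham 5 was the only sham library within the MI range. Fkbp1b, which encodes a binding partner of that channel, was the member that rose, from 1.26 to 3.07 CPM in sham to 3.23 to 6.88 CPM in MI with no overlap (log2 fold change 1.22, adjusted p = 0.00649).

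Of 19 ion channel and connexin genes, 15 fell and none rose (median -1.49, 16 of 19 without sham 5). Kcnip2, the subunit that sets the transient outward potassium current, was at 207 to 829 CPM in sham (median 790) and at 27.2 to 251 CPM in MI (median 204), a log2 fold change of -2.08 ± 0.51 (adjusted p = 0.00847). Gja1, connexin 43 of the gap junctions between ventricular myocytes, was at 210 to 765 CPM in sham (median 633) and at 242 to 345 CPM in MI (median 292), a change of -0.98 (adjusted p = 0.0115). For Gja1 the MI libraries lay close together, MI replicates 2 and 3 included, and sham 5 was below them all. Of 20 cardiac transcription factors and coactivators, 17 fell and none rose (median -1.24, 19 of 20 without sham 5). Among them Esrra, a nuclear receptor of mitochondrial genes, did not overlap between the groups, with 128 to 246 CPM in sham (median 234) and 62.4 to 120 CPM in MI (median 95.3), a log2 fold change of -1.2 ± 0.19 (adjusted p = 0.00119). Its coactivator Ppargc1a changed by -1.64 (adjusted p = 0.0151).

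Lists of energy metabolism, from fatty acid uptake to ATP synthesis, were lower in MI. Of 28 genes of fatty acid uptake and oxidation, 26 fell and none rose (median -1.55, 27 of 28 without sham 5). Cpt1b, the gate of fatty acid entry into muscle mitochondria, was at 127 to 511 CPM in sham (median 445) and at 25.3 to 177 CPM in MI (median 134), a log2 fold change of -1.85 ± 0.51 (adjusted p = 0.014). Sham 5 was again the lowest sham library and within the MI range. Ucp3, a mitochondrial carrier that follows fatty acid use, had the largest fall of all genes that met the naming rule, at 3.92 to 28.6 CPM in sham (median 22.1) and 0.53 to 5.47 CPM in MI (median 3.90), a change of -2.64 ± 0.63 (adjusted p = 0.0079). Of 85 nuclear-encoded respiratory chain subunits, 80 fell and 1 rose (median -1.21, 82 and 1 without sham 5). Atp5f1a, the alpha subunit of ATP synthase, was at 1447 to 4546 CPM in sham (median 4191) and at 534 to 1873 CPM in MI (median 1493), a change of -1.53 (adjusted p = 0.00917). Cox6b2, described as a testis isoform of a cytochrome oxidase subunit, was the subunit that rose, with 0.14 to 0.94 CPM in sham and 2.33 to 5.44 CPM in MI, and so it stayed low in level (log2 fold change 2.72, adjusted p = 0.000625).

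The proteins that serve this chain followed. Of 73 mitochondrial ribosomal proteins 68 fell and none rose (median -0.78, 68 without sham 5), and of 13 genes of the creatine, adenylate and oxygen shuttle 12 fell (median -1.40, and 12 without sham 5), among them Ckm, muscle creatine kinase, with a change of -2.22 ± 0.55 (adjusted p = 0.00862). Of 24 glucose uptake and glycolysis genes 16 fell and none rose with all libraries (median -0.59), and 16 fell and 5 rose without sham 5 (median -0.58). Slc2a4, the insulin-regulated transporter GLUT4 of muscle, was at 98.0 to 451 CPM in sham (median 392) and at 21.8 to 180 CPM in MI (median 118), a log2 fold change of -1.82 (adjusted p = 0.0169). The basal transporter GLUT1, Slc2a1, was at 9.29 to 15.3 CPM in the sham libraries other than sham 5, at 54.6 CPM in sham 5 and at 20.1 to 135 CPM in MI (median 35.5). Its log2 fold change was 1.37 with all libraries (adjusted p = 0.0665), 1.55 without MI replicate 5 (adjusted p = 0.045) and 2.05 without sham 5 (adjusted p = 0.00242). All 10 cardiomyocyte markers fell too, with and without sham 5, and the part of cardiomyocyte number in the changes of these lists was not tested.

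Without sham 5 and MI replicates 2 and 3, whose cardiomyocyte marker sums were lowest, 20 sarcomere genes and 83 of the respiratory chain subunits passed, with medians of -1.27 and -1.02. The medians were thus nearer to 0 without those 3 libraries than without sham 5 alone. With only MI replicates 2 and 3 left out, 18 sarcomere genes and 55 respiratory chain subunits passed.

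Genes of load and the fetal programme, which stretched or failing myocytes switch on, did not move as one. Of 19 members 3 rose and 4 fell (median -0.01, or 0.16 with library size alone), and without sham 5 4 rose and 5 fell. With all libraries the share called was below the 41.7% of all genes. Nppa, atrial natriuretic peptide, was at 346 to 4516 CPM in sham (median 924) and at 1253 to 12094 CPM in MI (median 4851), a log2 fold change of 1.78 ± 0.68 that missed the threshold (adjusted p = 0.0507) and passed without sham 5 (2.49, adjusted p = 0.00379), without MI replicate 1 (1.96, adjusted p = 0.0422) and without MI replicate 2 (1.99, adjusted p = 0.0369). The highest sham value was that of sham 5, and the lowest MI values were those of MI replicates 1 and 2. Nppb, brain natriuretic peptide, was at 281 to 714 CPM in sham (median 450) and at 190 to 1143 CPM in MI (median 512), with a log2 fold change of 0.16 ± 0.40 (adjusted p = 0.771). Myh7, the slow beta-myosin heavy chain that is the fetal partner of Myh6, was at 915 to 1782 CPM in sham (median 1317) and at 469 to 2195 CPM in MI (median 1229), with a change of -0.01 ± 0.39 (adjusted p = 0.979). The groups of Nppb and Myh7 overlapped over most of their ranges. These levels are relative to the whole library, in which the cardiomyocyte markers fell. Myh7 thus kept its level while Myh6 changed by -2.47, so that its level relative to Myh6 was higher in MI. Levels per cardiomyocyte were not tested.

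**Figure D4:**
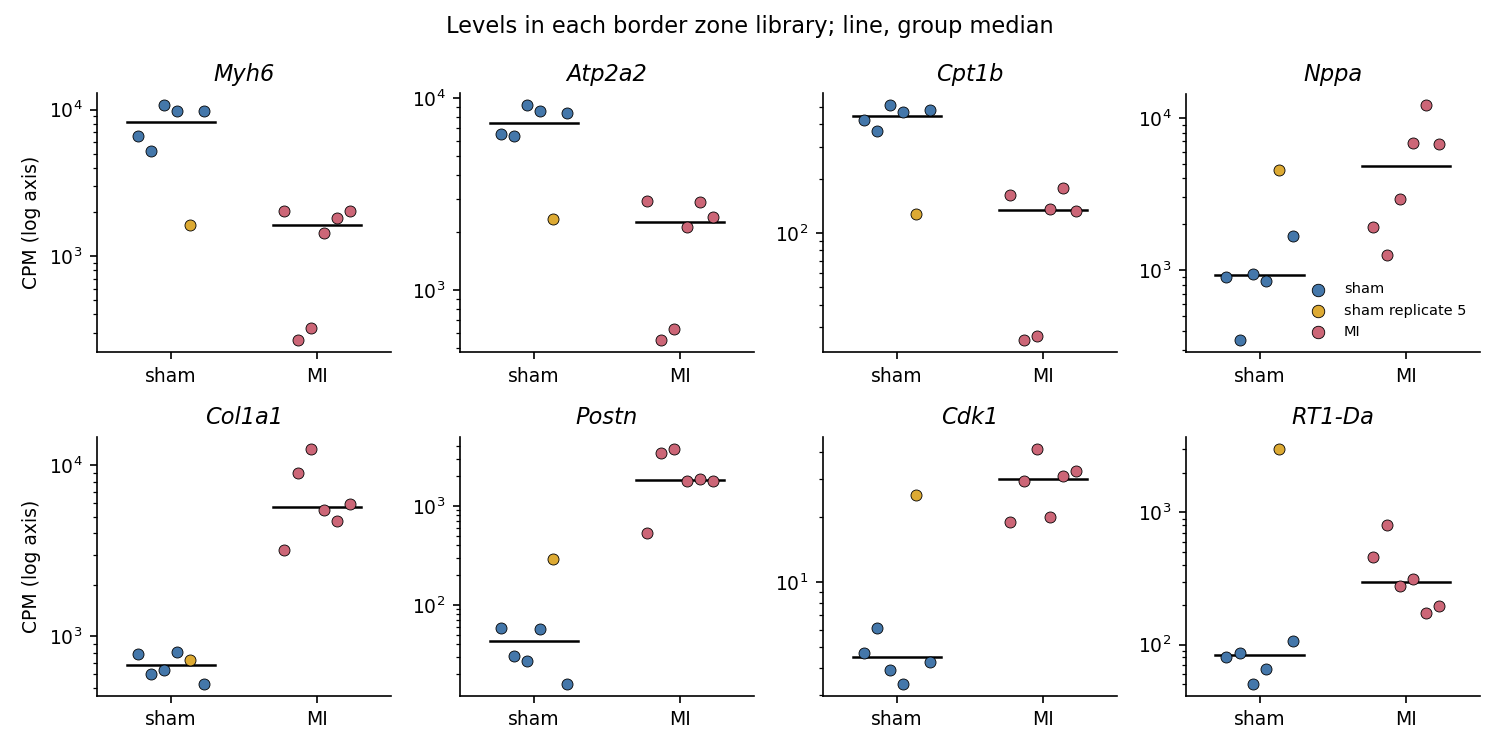
CPM on log axes of 8 genes in each border zone library, sham at left and MI at right in each panel, with the group median as a line. Myh6, Atp2a2 and Cpt1b are lower and Col1a1 and Postn higher in MI, Nppa spans 1253 to 12094 CPM in MI, and sham 5 lies with the MI libraries for Cdk1 and above every library for RT1-Da, at 3035 CPM.

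Genes of the extracellular matrix rose, and sham 5 was near the other sham libraries for some of them, such as Col1a1, and far above them for others, such as Spp1 and Tnc. Of 24 matricellular and provisional matrix genes, which build the temporary scaffold of a healing wound, 23 rose and none fell, with a median log2 fold change of 2.40, and 24 of 24 rose without sham 5 (median 2.58). Postn, periostin of activated fibroblasts, was at 15.9 to 291 CPM in sham (median 43.4) and at 533 to 3774 CPM in MI (median 1834), a log2 fold change of 4.78 ± 0.80 (adjusted p = 0.00143). The groups did not overlap, although sham 5, at 291 CPM, was well above the 57.7 CPM of the next sham library. Fn1, fibronectin, was at 142 to 293 CPM in sham (median 195) and at 1210 to 2651 CPM in MI (median 1624), a change of 3.11 ± 0.26 (adjusted p = 6.64e-05). Spp1, osteopontin of macrophages and fibroblasts, was at 0.92 to 2.13 CPM in 5 sham libraries, at 47.4 CPM in sham 5 and at 19.8 to 1600 CPM in MI (median 672), a change of 6.11 ± 1.36 (adjusted p = 0.00571). Tnc, tenascin C of wound edges, was the member that did not pass with all libraries, with 2.10 to 10.7 CPM in 5 sham libraries, 191 CPM in sham 5 and 62.6 to 604 CPM in MI (log2 fold change 2.74, adjusted p = 0.076, and 5.58, adjusted p = 0.000112, without sham 5). The window before Postn is shown as that of a well known gene of activated fibroblasts, with capitals at TATAAA, known as the TATA box, at 44 to 39 bases before the annotated start (RefSeq, GRCr8).
Postn, chr2:140677811-140678060 plus strand: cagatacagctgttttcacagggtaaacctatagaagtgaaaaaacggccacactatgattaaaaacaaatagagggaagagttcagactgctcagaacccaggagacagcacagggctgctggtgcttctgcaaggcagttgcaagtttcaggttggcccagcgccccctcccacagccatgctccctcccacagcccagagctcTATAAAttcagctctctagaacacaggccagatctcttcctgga

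TATAAA stood in 5 of the 16 windows of the matricellular list (31.2%), against 7.23% of the windows of tested genes and 13.1% of all windows.

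Of 37 collagen genes 22 rose and 2 fell (median 1.09, and 25 and 3 of 38 without sham 5). Col1a1 was at 525 to 810 CPM in sham (median 679) and at 3186 to 12520 CPM in MI (median 5713), a log2 fold change of 3.33 ± 0.34 (adjusted p = 0.000111). Col3a1, the other main fibrillar chain of a young scar, was at 1311 to 2301 CPM in sham (median 2119) and at 7916 to 19161 CPM in MI (median 11901), a change of 2.70 ± 0.28 (adjusted p = 0.000122). Neither gene overlapped between the groups, and sham 5 was an ordinary sham library for both. Col11a1, a minor fibrillar chain typical of cartilage, rose most of the collagens, from 0.06 to 2.36 CPM in sham to 5.06 to 221 CPM in MI (median 61.9; change 6.88 ± 0.97, adjusted p = 0.000566). Col11a2, the partner chain of Col11a1, fell by 1.05 on the log2 scale (adjusted p = 0.0046), with sham 5 as the one sham library within the MI range, and Col6a6 was the other collagen that fell.

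The collagen genes that the study singled out for its own comparison were among those that rose. Col6a1 and Col6a2, chains of the beaded collagen VI filaments around cells, had log2 fold changes of 1.41 (adjusted p = 0.000882) and 1.44 (adjusted p = 0.000652), and their groups did not overlap. Col6a3, the third chain, had a change of 1.91 (adjusted p = 0.00112), with MI replicate 1, at 135 CPM, within the sham range of 91.4 to 145 CPM. Col12a1, a collagen that links fibrils, was at 5.20 to 13.1 CPM in sham (median 6.91) and at 57.0 to 802 CPM in MI (median 182), a change of 5.23 ± 0.63 (adjusted p = 0.000232). The study chose these genes on libraries of this series, so that their direction is not independent evidence.

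Enzymes that modify and crosslink collagen rose with it, 19 of 22 and none lower (median 1.55, 19 without sham 5). Lox, lysyl oxidase, which crosslinks collagen and elastin, was at 18.2 to 56.6 CPM in sham (median 29.5) and at 307 to 657 CPM in MI (median 334), a log2 fold change of 3.52 ± 0.34 (adjusted p = 9.77e-05). Plod2, the lysyl hydroxylase of collagen telopeptides, had a change of 2.71 (adjusted p = 0.000299) and P4ha3, a prolyl hydroxylase subunit, a change of 4.11 (adjusted p = 0.000654), both with no overlap. Of 12 small leucine-rich proteoglycans, which coat fibrils, 8 rose and none fell (median 1.04, 7 without sham 5). Bgn, biglycan, was at 207 to 690 CPM in sham (median 282) and at 978 to 2744 CPM in MI (median 2279), a change of 2.58 ± 0.33 (adjusted p = 0.000352), with sham 5 as the highest sham library.

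Of 28 matrix proteases and inhibitors 17 rose and 3 fell (median 1.99, 19 and 4 without sham 5). Adam12, a metalloprotease of fibrotic fibroblasts, was at 0.25 to 4.47 CPM in sham (median 1.48) and at 36.1 to 225 CPM in MI (median 57.5), a log2 fold change of 5.66 ± 0.70 (adjusted p = 0.000274). Mmp14, which activates the gelatinase Mmp2 at the cell surface, had a change of 2.47 (adjusted p = 0.000233), and Mmp2 itself one of 1.48 (adjusted p = 0.000749). None of these 3 genes overlapped between the groups. The members that fell were Mmp15, Timp4 and Adam19, and Timp4 encodes an inhibitor that the heart expresses in adult life. All 10 myofibroblast markers and 8 of the 10 fibroblast markers rose, while 1 fibroblast marker fell. Without sham 5, 7 fibroblast markers rose and 1 fell, and the 10 myofibroblast markers rose again. Among those that rose was Acta2, smooth muscle actin, from 23.7 to 43.1 CPM in sham to 59.6 to 461 CPM in MI (log2 fold change 2.99 ± 0.39, adjusted p = 0.000362). MI replicate 1 had the lowest myofibroblast score of the MI libraries, at 4.40 against 5.83 to 6.88. Col1a1, Lum, Dcn, Pcolce and Mfap5 are fibroblast markers and Postn, Cthrc1, Comp, Cilp and Thbs4 myofibroblast markers, and all belong to the matrix lists above. The marker and matrix changes are thus partly the same counts. The part of fibroblast number in the matrix changes was not tested. With sham 5 and MI replicates 2 and 3 left out, 24 of the matricellular and 27 of the collagen genes passed.

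Growth factor systems that act on fibroblasts and vessels moved in part. Of 29 genes of the TGF-beta and activin system, which drives matrix production, 12 rose and 1 fell (median 0.47, 17 and 2 without sham 5). The share called was near the 41.7% of all genes with all libraries. Of all genes 18.4% rose with all libraries and 31.9% without sham 5. The ligand Tgfb3 was at 65.1 to 98.3 CPM in sham (median 74.9) and at 112 to 271 CPM in MI (median 181), a log2 fold change of 1.16 ± 0.22 (adjusted p = 0.00278), and the groups did not overlap. Tgfb2 had a change of 1.09 (adjusted p = 0.00402) and Inhba, the subunit of activin A, one of 1.64 (adjusted p = 0.00252). Tgfb1, the ligand of immune and stromal cells, was at 30.3 to 36.6 CPM in 5 sham libraries, at 121 CPM in sham 5 and at 59.5 to 95.9 CPM in MI (median 79.1). Its log2 fold change was 0.67 with all libraries (adjusted p = 0.129) and 1.2 without sham 5 (adjusted p = 3.43e-05).

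Of 17 Wnt ligands and secreted antagonists 9 rose and 1 fell (median 0.91, 8 and 2 without sham 5). The 9 were Sfrp1, Sfrp2, Sfrp4, Frzb, Dkk2 and Dkk3, of the sFRP and Dickkopf families, and the ligands Wnt2, Wnt4 and Wnt5b. Sfrp4 was at 0.16 to 0.80 CPM in sham (median 0.50) and at 12.6 to 57.6 CPM in MI (median 38.1), a log2 fold change of 6.11 ± 0.50 (adjusted p = 6.64e-05). Sfrp1, Sfrp2 and Frzb had changes of 2.27 (adjusted p = 7.6e-05), 3.39 (adjusted p = 0.000593) and 3.53 (adjusted p = 0.00208), again with no overlap.

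Of 18 genes of the VEGF and angiopoietin system, which directs vessel growth, 7 rose and 4 fell (median 0.00, or 0.21 with library size alone, and 7 and 7 without sham 5). Vegfa, the main endothelial growth factor, was at 343 to 899 CPM in sham (median 765) and at 193 to 453 CPM in MI (median 401), a log2 fold change of -1.05 ± 0.27 (adjusted p = 0.0111). Its receptor Kdr had a change of -0.80 (adjusted p = 0.0105), and in both genes sham 5 was the sham library within the MI range. Angpt2, which loosens vessels for sprouting, was at 9.11 to 10.1 CPM in sham and at 12.6 to 44.1 CPM in MI (median 20.3), a change of 1.24 ± 0.26 (adjusted p = 0.0041) with no overlap. Among the 11 endothelial markers Kdr alone passed with all libraries, and 5 fell without sham 5, the sham library with the lowest endothelial score. Pecam1, the pan-endothelial adhesion molecule, was at 159 to 356 CPM in sham and 194 to 306 CPM in MI, with a log2 fold change of -0.14 ± 0.18 (adjusted p = 0.565).

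Of 16 genes of the Notch and Cxcl12 system 3 rose and 2 fell (median -0.10 with TMM and 0.11 with library size alone), and 4 rose and 3 fell without sham 5. With all libraries the share called was below the 41.7% of all genes. Leaving out sham replicate 1, 3 or 4 or MI replicate 2 or 3 lowered the 5 calls to 2, and leaving out sham replicate 2 lowered them to 3. Cxcr4, the receptor of Cxcl12 on leukocytes and progenitor cells, was at 28.3 to 43.1 CPM in sham and at 45.1 to 83.3 CPM in MI, a log2 fold change of 0.88 ± 0.16 (adjusted p = 0.00199) with no overlap. Cxcl12, the ligand, was at 199 to 381 CPM in sham (median 330) and at 144 to 432 CPM in MI (median 294), with a change of -0.07 ± 0.28 (adjusted p = 0.852). Its MI libraries were split, so that the median and the change describe neither part. MI replicates 1 to 3, at 432, 384 and 412 CPM, lay above every sham library. MI replicates 4 to 6, at 144 to 203 CPM, lay below the sham libraries other than sham 5, which were at 288 to 381 CPM. Notch3, the Notch receptor of mural cells, was at 27.4 to 69.8 CPM in sham (median 58.6) and at 31.4 to 103 CPM in MI (median 90.0), with a change of 0.58 ± 0.29 (adjusted p = 0.131), and 0.74 (adjusted p = 0.0265) without MI replicate 1. Ndnf, a neurotrophic factor of endothelial cells, was at 0.06 to 0.85 CPM in 5 sham libraries, at 8.64 CPM in sham 5 and at 0.24 to 6.40 CPM in MI, with a change of 0.97 (adjusted p = 0.46) that became 3.16 (adjusted p = 0.00515) without sham 5. Of the 9 genes the study singled out, 6 rose (7 without sham 5), and Cxcl12, Notch3 and Ndnf were those that did not pass. The study reported these genes as higher in cell sheet hearts than in untreated MI hearts. That is another comparison, which was not made here, so the tally does not bear on it.

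The calls for immune genes depended on sham 5. Of 10 MHC class II genes, which present antigen to T cells, none passed with all libraries, none at an unadjusted p under 0.05 and none in DESeq2, whereas 9 rose without sham 5, and the median log2 fold change moved from -0.88 to 2.00. RT1-Da, a class II alpha chain, was at 50.5 to 106 CPM in 5 sham libraries, at 3035 CPM in sham 5 and at 173 to 810 CPM in MI (median 297). The change was -0.62 ± 1.03 (adjusted p = 0.648) with all libraries and 2.26 (adjusted p = 0.000523) without sham 5. Ciita, the master activator of class II genes, was at 2.93 to 8.14 CPM in 5 sham libraries, 288 CPM in sham 5 and 9.10 to 48.4 CPM in MI, and went from -1.36 (adjusted p = 0.35) to 2.03 (adjusted p = 0.00226). Cd74, the invariant chain, was at 519 to 582 CPM in 5 sham libraries, at 6492 CPM in sham 5 and at 476 to 1393 CPM in MI. The RT1 genes are a family of close relatives, so that their reads may be split between members. Cd74 did not pass in either fit, with -0.99 (adjusted p = 0.271) and 0.50 (adjusted p = 0.119).

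T cell genes had the same form. Of 8 T cell markers tested none passed with all libraries in edgeR or DESeq2, none had an unadjusted p under 0.05, and 7 rose without sham 5. Cd3e, a chain of the T cell receptor complex, was at 0.15 to 1.94 CPM in 5 sham libraries, at 122 CPM in sham 5 and at 1.00 to 7.24 CPM in MI (median 3.94), with a log2 fold change of -2.46 (adjusted p = 0.194) that became 2.65 (adjusted p = 0.00564). The value of sham 5 was thus higher than that of every other border zone library of either group. Of 21 interferon-stimulated genes none passed in edgeR (median -0.21), 2 had an unadjusted p under 0.05, 3 passed in DESeq2, and 5 rose without sham 5 (median 0.35). With 1 of sham replicates 1 and 4 or MI replicates 1 and 4 left out, 1 passed.

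Of 30 chemokines and receptors 7 rose and 2 fell (median 0.32), and 20 rose and 2 fell without sham 5 (median 1.83). With all libraries the share called was below the 41.7% of all genes. Of all genes 18.4% rose with all libraries and 31.9% without sham 5. Ccl2, the chemokine that draws monocytes, was at 12.7 to 14.7 CPM in 5 sham libraries, at 170 CPM in sham 5 and at 44.2 to 133 CPM in MI (median 66.5), with a change of 0.88 (adjusted p = 0.329) and 2.45 (adjusted p = 4.32e-05) without sham 5. Cx3cr1, the fractalkine receptor of resident and monocyte-derived macrophages, moved from 1.19 (adjusted p = 0.244) to 3.21 (adjusted p = 1.17e-05). Cxcl6, a neutrophil attractant, rose in both fits, with 0 to 0.36 CPM in sham and 0.67 to 137 CPM in MI, a log2 fold change of 8.18 ± 1.63 (adjusted p = 0.00345). Its MI values were 11.4, 137 and 87.9 CPM in MI replicates 1 to 3 and 0.67 to 2.78 CPM in MI replicates 4 to 6.

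Of 26 interleukin and TNF family genes 12 rose and 1 fell (median 1.23), and 23 of 27 rose and 2 fell without sham 5 (median 1.80). Il1b, the early inflammatory cytokine, was at 54.1, 266 and 51.8 CPM in MI replicates 1 to 3, at 4.44 to 8.20 CPM in MI replicates 4 to 6, at 35.4 CPM in sham 5 and at 1.70 to 2.87 CPM in the other sham libraries. Its log2 fold change was 3.07 ± 1.19 (adjusted p = 0.0543) and 4.99 (adjusted p = 0.00253) without sham 5, and it passed as well without MI replicate 4 (3.31, adjusted p = 0.0483), 5 (3.33, adjusted p = 0.043) or 6 (3.32, adjusted p = 0.0444). Il1rl1, the receptor of interleukin 33, was at 3.90 to 18.0 CPM in sham (median 5.50) and at 10.9 to 52.4 CPM in MI (median 32.9), a change of 2.15 ± 0.46 (adjusted p = 0.00498). Il1r2, the decoy receptor of interleukin 1, was at 0.30 to 1.09 CPM in sham and at 2.19 to 79.0 CPM in MI (median 11.1), a change of 5.59 ± 0.98 (adjusted p = 0.00182). The neutrophil marker S100a9 was at 62.3, 200 and 106 CPM in MI replicates 1 to 3 and at 3.21 to 8.62 CPM in MI replicates 4 to 6, with 0.66 to 5.89 CPM in sham (log2 fold change 4.27 ± 1.00, adjusted p = 0.0072). The MI libraries thus fell into 3 with much and 3 with little of Cxcl6, Il1b and S100a9, and neutrophil marker scores were highest in the same 3 libraries. S100a9 is itself a member of that marker list, so that score and gene are partly the same counts. The part of neutrophils in these changes was not tested.

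Of 22 complement genes 9 rose and none fell (median 0.99), and 19 rose and 1 fell without sham 5 (median 2.06). With all libraries the share called was near the 41.7% of all genes. Of all genes 18.4% rose with all libraries and 31.9% without sham 5. C3, the central component, was at 8.08 to 13.1 CPM in 5 sham libraries, at 398 CPM in sham 5 and at 28.1 to 725 CPM in MI (median 144), with a change of 1.73 (adjusted p = 0.241) and 4.61 (adjusted p = 0.000359) without sham 5. Of 10 macrophage markers 7 rose, and all 10 without sham 5. Trem2, a receptor of lipid-laden and scar-associated macrophages, was at 2.70 to 29.6 CPM in sham (median 6.99) and at 44.1 to 113 CPM in MI (median 103), a change of 3.09 ± 0.51 (adjusted p = 0.00141), and Mrc1, the mannose receptor, had a change of 1.69 (adjusted p = 0.00179). Neither gene overlapped between the groups even with sham 5, the highest sham library in both. Summed macrophage markers were at 225 to 424 CPM in the other sham libraries, 1951 CPM in sham 5 and 956 to 2298 CPM in MI. C1qa and C1qb are members of this marker list and of the complement list, so that part of the counts is shared. The part of macrophages in the changes of the immune lists was not tested.

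Cell cycle genes were higher in MI, most clearly against the 5 sham libraries other than sham 5. Of 24 members 11 rose and none fell with all libraries (median 1.32), and 24 of 24 rose without sham 5 (median 2.23). The share called was near the 41.7% of all genes with all libraries. Of all genes 18.4% rose with all libraries and 31.9% without sham 5. The count of 11 fell to between 3 and 5 without any of sham replicates 1, 2, 3, 4 and 6 and MI replicates 2, 3 and 6, to 8 without MI replicate 1, 4 or 5, and to 1 without both MI replicates 2 and 3. Cdk1, the kinase that starts mitosis, was at 3.37 to 6.12 CPM in 5 sham libraries, at 25.4 CPM in sham 5 and at 18.9 to 41.5 CPM in MI (median 30.2), a log2 fold change of 1.85 ± 0.49 (adjusted p = 0.0122) and 2.70 (adjusted p = 1.87e-05) without sham 5. Ccnb1, the cyclin that works with it, was at 3.06 to 4.71 CPM in 5 sham libraries, at 23.8 CPM in sham 5 and at 14.7 to 28.1 CPM in MI (median 21.3), a change of 1.59 (adjusted p = 0.0253) and 2.54 (adjusted p = 9.4e-06) without sham 5. Without sham replicates 1, 2, 3, 4 or 6 or MI replicate 3, the adjusted p of Ccnb1 lay between 0.0521 and 0.0559. Mki67, a marker of dividing cells, had changes of 0.96 (adjusted p = 0.168) and 2.04 (adjusted p = 1.17e-05), and Top2a, a topoisomerase of dividing cells, of 1.19 (adjusted p = 0.0892) and 2.23 (adjusted p = 7.85e-06). Which cells divided is not given by these libraries. The windows before Ccnb1 and Cdk1 are shown as members of a list that moved together, from RefSeq (GRCr8). Capitals mark CCAAT or its opposite-strand reading ATTGG, the CCAAT box, and TTTGAA, the CHR element of many mitotic genes.
Ccnb1, chr2:33655226-33655475 minus strand: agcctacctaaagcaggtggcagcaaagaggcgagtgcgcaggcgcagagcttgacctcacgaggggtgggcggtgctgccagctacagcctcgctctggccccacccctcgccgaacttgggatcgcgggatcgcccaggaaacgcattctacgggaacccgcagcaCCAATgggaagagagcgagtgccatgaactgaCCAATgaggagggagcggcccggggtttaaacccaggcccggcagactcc
Cdk1, chr20:19265043-19265292 plus strand: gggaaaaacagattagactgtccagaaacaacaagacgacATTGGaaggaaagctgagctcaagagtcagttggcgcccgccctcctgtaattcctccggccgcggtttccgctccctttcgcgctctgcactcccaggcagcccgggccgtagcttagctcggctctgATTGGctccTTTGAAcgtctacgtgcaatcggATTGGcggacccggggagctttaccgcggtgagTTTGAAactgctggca

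CCAAT stood in 16 of the 20 cell cycle windows (80.0%), against 34.9% of the windows of tested genes and 34.3% of all windows, and TTTGAA in 7 of the 20 (35.0%), against 10.6% and 16.0%. Both strands were searched, and no marked match overlaps another in the windows shown.

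Immediate early and AP-1 genes, which respond within minutes to stress, passed in 3 of 21 cases with all libraries (all higher, median 0.28) and in 11 without sham 5 (median 0.51). Of all genes 18.4% rose and 23.2% fell with all libraries, and 31.9% rose and 28.9% fell without sham 5. Fos was at 3.67 to 25.8 CPM in sham (median 10.9) and at 11.5 to 33.8 CPM in MI (median 25.7), with a log2 fold change of 0.93 (adjusted p = 0.118) and 1.28 (adjusted p = 0.0213) without sham 5. Cytosolic ribosomal protein genes rose in 32 of 86 cases and fell in 1 (median 0.35, 51 and 2 without sham 5, and 65 and 1 with library size alone), and these calls numbered 12 in place of 33 without sham replicate 3, 4 or 6 or MI replicate 3. The share of them called with all libraries was below the 41.7% of all genes. The one that fell was Rpl3l, the muscle form of a ribosomal protein, at 109 to 449 CPM in sham (median 403) and 18.0 to 165 CPM in MI (median 87.6), a log2 fold change of -2.16 ± 0.54 (adjusted p = 0.0094). Its widely expressed counterpart Rpl3 had a change of 1.12 ± 0.30 (adjusted p = 0.0121).

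Of 15 genes of adrenergic and angiotensin signalling 2 rose and 4 fell (median -0.10 with TMM and 0.07 with library size alone), and 4 of 16 rose and 7 fell without sham 5. The share called is near the 41.7% of all genes. Agtr1a, the type 1 angiotensin receptor, was at 2.40 to 4.30 CPM in sham (median 2.84) and at 20.8 to 53.7 CPM in MI (median 27.6), a log2 fold change of 3.5 ± 0.29 (adjusted p = 6.64e-05). Ace, which makes angiotensin II, was at 7.98 to 13.5 CPM in sham (median 11.8) and at 34.8 to 45.5 CPM in MI (median 41.9), a change of 1.84 ± 0.13 (adjusted p = 6.64e-05). The groups did not overlap for either, and sham 5 was the highest sham library for Agtr1a and the lowest for Ace. Adrb1, the beta-1 receptor through which noradrenaline drives the heart, was at 6.75 to 24.7 CPM in sham (median 19.9) and at 1.22 to 9.97 CPM in MI (median 6.65), a change of -1.63 ± 0.50 (adjusted p = 0.0219). The other 3 that fell were the alpha-1 receptor genes Adra1a, Adra1b and Adra1d.

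Among all genes that passed with and without sham 5 at a mean log2 CPM of at least 1, the 10 largest rises were those of Tnn, C1qtnf3, Col11a1, Ca3, Sfrp4, Spp1, Ccn5, Cthrc1, Adam12 and Il1r2, with log2 fold changes from 8.65 down to 5.59. Tnn, tenascin N of bone and tendon, was at 0 to 0.52 CPM in sham and at 2.21 to 382 CPM in MI (median 23.8), so that its size rests on few sham counts. C1qtnf3, a secreted protein of the adiponectin family, was at 0.08 to 1.10 CPM in sham (median 0.69) and at 14.4 to 140 CPM in MI (median 87.7), a change of 7.0 ± 0.65 (adjusted p = 8.59e-05). Cthrc1, a secreted protein of activated fibroblasts in scars, was at 1.05 to 10.1 CPM in sham (median 2.09) and at 89.0 to 368 CPM in MI (median 201), a change of 5.75 ± 0.61 (adjusted p = 0.000139). The 10 largest falls were those of Ucp3, Adcy1, Magix, Ky, Myh6, Trnd, Klhl33, Ddit4l, Pllp and Kcna2, with log2 fold changes from -2.64 to -2.40. Trnd is a tRNA gene symbol, and its reads depend on how the authors' counting treated such short genes. Adcy1, a calcium-stimulated adenylyl cyclase, was at 3.26 to 14.4 CPM in sham (median 10.9) and at 0.23 to 2.57 CPM in MI (median 1.81), a change of -2.63 ± 0.49 (adjusted p = 0.00254) with no overlap. Kcna2, a delayed rectifier potassium channel, had a change of -2.40 ± 0.44 (adjusted p = 0.00229).

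The other zones of the same hearts were set beside the border zone, to ask where it differs. In the infarct zone 22.7% of 15758 genes were higher and 27.2% lower in MI, and in the remote zone 11.7% and 14.2% of 15294. Without sham 5, 5489 of 16107 genes were higher and 4945 lower in the infarct zone, and 3656 and 3521 of 15444 in the remote zone. List medians of the border zone lay between those of the other zones for most groups, with -1.54 for the sarcomere against -1.73 in the infarct and -0.74 in the remote zone, -1.21 for the respiratory chain against -1.64 and -0.20, and 2.40 for the matricellular genes against 2.96 and 1.77. For cell cycle genes the medians were 1.32, 1.16 and 1.43. Exceptions were the chemokine, interleukin, complement and MHC class II lists, whose border zone medians were above both others with and without sham 5. Without it the border, infarct and remote medians were 1.83, 1.30 and 0.89 for chemokines and 1.80, 1.74 and 1.08 for interleukins. They were 2.06, 1.66 and 1.37 for complement and 2.00, 1.75 and 0.92 for MHC class II. Such a difference was tested as an interaction of group by zone, in which each animal was a block. No gene of 16475 passed for border against remote zone in edgeR, with 3995 at an unadjusted p under 0.05 and the lowest adjusted p at 0.0636, whereas DESeq2 gave 1411. Without the animal MI replicate 5, edgeR gave 1539. For border against infarct zone none of 16766 passed, with 1430 at an unadjusted p under 0.05, 68 in DESeq2 and 1 in edgeR without MI replicate 3.

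Since no gene passed, the genes given here were chosen after their values were seen. The lowest adjusted p was shared by genes of several kinds, red cell genes among them. Hba-a1, an alpha globin, had log2 fold changes of -0.63 in the border (adjusted p = 0.268) and 1.12 in the remote zone, an interaction of -1.66 (adjusted p = 0.0636). Alas2, which starts haem synthesis in red cell precursors, had an interaction of -1.56 (adjusted p = 0.0636). The erythroid markers summed to 654 to 4537 CPM in the sham and 808 to 2633 CPM in the MI border zone libraries. Mrpl12, a mitochondrial ribosomal protein, had a log2 fold change of -1.02 in the border and 0.00 in the remote zone, an interaction of -1.11 (adjusted p = 0.0636). Ca3, a carbonic anhydrase of muscle and fat, had changes of 6.44 and 2.59, an interaction of 3.53 (adjusted p = 0.0776). Ace had 1.84 and 1.13, an interaction of 0.73 (adjusted p = 0.0716), and Fn1 3.11 and 1.92, an interaction of 1.25 (adjusted p = 0.0864). None of them is shown to differ between the zones by the test used here.

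**Figure D5:**
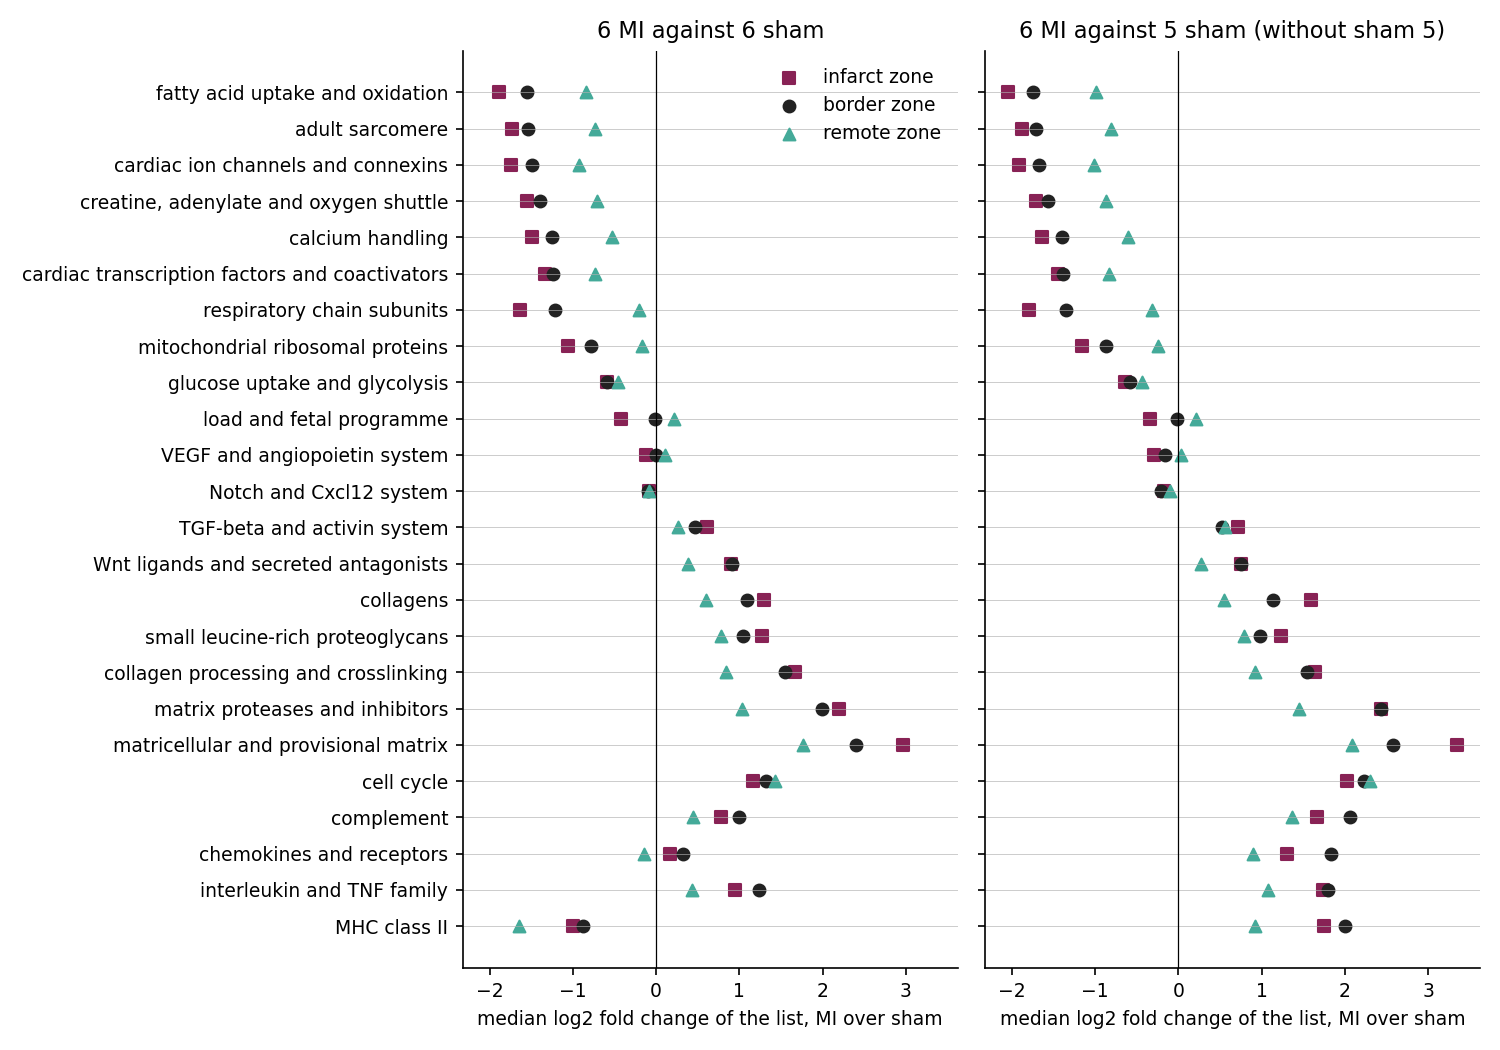
Median log2 fold change of MI over sham (horizontal axis) of 24 gene lists in the infarct zone (squares), border zone (circles) and remote zone (triangles), with all libraries at left and without sham replicate 5 at right. The border zone median of the sarcomere list is -1.54, between -1.73 in the infarct zone and -0.74 in the remote zone, and the 3 zones of a heart come from the same animal.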

How the data were processed

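Border zone tissue of 6 untreated MI and 6 sham hearts was taken 1 week after surgery, of 54 libraries (18 animals, 3 zones). STAR served the authors for trimming and alignment (mRatBN7.2, RefSeq rat annotation), and they deposited whole-number counts per gene without normalization. Which program counted, and whether by strand, is not given in the sources used here. The 5 summary lines of each table, which name no gene, held 24.4% to 38.9% of sham and 19.7% to 27.9% of MI counts and were left out, which left 40319 genes. Groups and replicate numbers come from the labels.

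Genes were tested in R 4.3.3 with edgeR 4.0.16 (quasi-likelihood F test, TMM, filterByExpr, Benjamini-Hochberg, threshold 0.05) on the 12 libraries alone, and zones with the interaction of group and zone and the animal as a block. The study tested cell sheet against MI with DESeq2, and its methods name no test of MI against sham, and DESeq2 1.42.0 was an alternative here. Other alternatives were the filter, the scaling, depth, the replicate number as a block, a fit of all 9 groups and leaving out each library. No pair of libraries was a duplicate, since chi-square divided by its degrees of freedom, over genes, was 7.97 to 401 for pairs of the same group. Levels are CPM with TMM factors, marker scores are means of log2(CPM + 0.1), and principal components used log2 CPM with a prior count of 2. Library shares were tested with the exact permutation test over the 924 splits. Protein-coding mitochondrial genes were not used here, so that the mitochondrial share is that of mt-Rnr1 and mt-Rnr2. The tests were tried on simulated data first.

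The members, the 28 gene lists and the 17 marker lists were chosen with earlier results of these data known. Values are given for genes picked by a rule, which took the 10 largest rises and falls that passed with and without sham 5 at a mean log2 CPM of at least 1, the first 4 members and the largest rise and fall of each list, the genes the study singled out and the leading genes of each interaction, of which none passed. Of the genes this rule gave, those described were narrowed for length after their values were seen. A result for 1 further gene is not reported here. The markers Acta2, Pecam1, Mrc1, Trem2, S100a9, Cd3e, Hba-a1 and Alas2 lie outside the rule and were added after their values were seen. Promoter windows are the 250 bases before the annotated start of RefSeq genes in GRCr8, another assembly than that of the counts, and 11601 of the 15641 genes tested had one by symbol. They were searched on both strands for TATAAA for the TATA box, CATTCC for a TEAD site, AGATAA for a GATA site, CCAAT for the box of that name and TTTGAA for the CHR.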

Additional observations from a re-analysis of the deposited data

Results flagged for a closer look

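In each group of 6 libraries, the gap between the most extreme library and its nearest neighbour was divided by the range of the group (Dixon's ratio), for the log2(CPM + 0.1) of the genes named and for the scores of the cell type lists. On a linear scale the ratios differ. Of 230 groups, 52 lay above the 95% critical value for 6 samples, and in 49 of them the extreme library was sham 5. That value is passed by chance in about 1 in 20 independent groups. These groups come from the same 12 libraries, and some of the genes were chosen after their values were seen. They are thus not independent, and the rate is no measure for the count of 52.

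Sham 5 was the lowest sham library for genes of muscle function, metabolism and vessels, with ratios of Ucp3 0.732, Adcy1 0.729, Magix 0.804, Ky 0.717, Klhl33 0.677, Tnni3 0.83, Atp2a2 0.726, Kcnip2 0.858, Gja1 0.636 and Ppargc1a 0.807. The other genes with sham 5 lowest had ratios of Esrra 0.727, Cpt1b 0.762, Slc2a4 0.838, Atp5f1a 0.858, Ckm 0.919, Col11a2 0.662, Inhba 0.694, Frzb 0.688, Vegfa 0.726, Kdr 0.71, Ace 0.628, Rpl3l 0.836, Mrpl12 0.76 and Pecam1 0.648. Sham 5 was the highest sham library for immune, wound and cell cycle genes, with ratios of Spp1 0.796, Il1r2 0.882, Slc2a1 0.719, Tnc 0.643, Tgfb1 0.864, Ccl2 0.945, Cx3cr1 0.875, Il1b 0.832, Il1rl1 0.74 and C3 0.878. The other genes with sham 5 highest had ratios of Cd74 0.954, RT1-Da 0.82, Ciita 0.78, Mki67 0.808, Top2a 0.817, Ccnb1 0.793, Cdk1 0.707 and Cd3e 0.661. Among cell type scores, sham 5 was lowest for cardiomyocyte (0.778), endothelial (0.776) and mural markers (0.74), and highest for macrophage (0.635), B and plasma cell (0.705), T cell (0.765) and skeletal muscle markers (0.636).

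In the MI group, replicate 1 was lowest for Cx3cr1 (0.828) and for Col6a3 (0.666), and replicate 2 was lowest for Trnd (0.635).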

How the results depend on the processing

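The number of genes that differed in the border zone was 6517 and lay between 5068 and 9641 when 1 library was left out (higher in MI 2254 to 5059, lower 2800 to 4582), with the highest counts without sham 5 (9641, of which 5059 higher). It stayed within 1.5 times under DESeq2 (7561), no filter (5776), at least 10 counts in every library (5968), thinning to the smallest library (6402) and a fit of all 9 groups (7828). With library size alone 2351 genes were lower in place of 3634, since the median log2 fold change of all genes moved from -0.02 to 0.17. With an absolute log2 fold change above 1, 2853 genes passed. The replicate number as a block gave 4193 genes, 1975 of them lower. Animals with the same number in the 2 groups are different rats, and their deviations had correlations of 0.125, -0.27, -0.336, 0.33, -0.52 and 0.224, with no sham library closest to its own number, so that the numbers do not pair the samples. Alternatives chosen after seeing the data left out MI replicates 2 and 3 (3720 genes, 1650 higher and 2070 lower), these and sham 5 (8548, 4413 higher) or sham 5 and MI replicate 1 (9615, 5028 higher).

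The interaction of border and remote zone gave 0 to 1539 genes when 1 animal was left out (1539 without MI replicate 5) and 1411 in DESeq2, and that of border and infarct zone 0 to 1 (1 without MI replicate 3) and 68 in DESeq2. The cause of the difference between the tools was not tested. The share of reads on no gene differed by -11.5 to -8.52 percentage points when 1 library was left out. The share of mitochondrial ribosomal RNA differed by -0.438 to -0.263 points, and lost the threshold without MI replicate 2 (-0.318, exact permutation p = 0.0584) or MI replicate 4 (-0.33, exact permutation p = 0.0519).

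Of the 95 genes examined, 3 passed the threshold in the other direction once sham 5 was left out. Cd74 (-0.99 to 0.50) and Myh7 (-0.01 to 0.02) changed sign without passing. When 1 library was left out, RT1-Da lay between -1.0 and 2.26, Ciita between -1.83 and 2.03 and Cd3e between -2.75 and 2.65. Without sham 5, RT1-Da went to 2.26, Ciita to 2.03 and Cd3e to 2.65, with sham 5 and MI replicates 2 and 3 left out to 1.89, 1.54 and 2.25, and with sham 5 and MI replicate 1 left out to 2.19, 1.98 and 2.56. Without sham 5, 79 kept their side of the threshold, and 13 passed it newly beside these 3. Under the replicate block 7 lost and 6 gained a call, and without MI replicates 2 and 3 4 lost and 1 gained one. Depth limits genes such as Tnn and Cxcl6, which had 26 and 12 counts over the 6 sham libraries.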

Other observations

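Of 10 mural markers tested 3 rose and 1 fell, and 3 rose and 3 fell without sham 5. Of 9 mast cell markers 3 rose and 1 fell, and 5 and 1 without sham 5. The mean log2(CPM + 0.1) of mast cell markers was 1.35 to 2.01 in sham and 1.98 to 3.60 in MI. Of 8 Schwann and nerve markers 1 rose, and 3 without sham 5. Of 10 mesothelial markers 1 rose, and 1 rose and 1 fell without sham 5, with scores from 0.97 to 4.57 in sham and from 2.42 to 5.11 in MI.

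Of 7 skeletal muscle markers 1 rose and 1 fell, with and without sham 5. Of 7 atrial markers 1 rose and 1 fell, and 3 and 1 without sham 5. Summed atrial markers were at 1268 to 5007 CPM in sham and 1654 to 13328 CPM in MI. Most of that sum was Nppa and Pam, at 12094 and 1169 CPM in MI replicate 5, the highest MI library. In sham 5, the highest sham library, they were at 4516 and 458 CPM. The sum thus largely repeats the counts of Nppa given above. The mean log2 level of the list overlapped between the groups, with 2.36 to 3.55 in sham and 2.47 to 3.53 in MI. Of 5 B and plasma cell markers 1 fell, and 2 rose and 1 fell without sham 5. Of 6 neutrophil markers 5 rose, and 6 without sham 5. Of 6 erythroid markers 1 fell, and 2 without sham 5.

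Of the 10 adipocyte markers only Fabp4, Pparg and Lipe passed the filter on low counts in edgeR, and 2 of these 3 fell (3 without sham 5). DESeq2, run without that filter, called 4 adipocyte markers higher and 2 lower in MI. The 1 lung marker that passed the filter did not pass the test, with or without sham 5.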
